A study of Mus musculus with 5 samples.

Results

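Small nucleolar RNAs (snoRNAs) were followed through the differentiation of C2C12, a line of mouse myoblasts whose cells form myotubes once serum is withdrawn. The miRNA arrays used in the study carried 10 control probes for snoRNAs, each spotted 2 times and each named for a human gene: SNORD3@, SNORD118, SNORD13, SNORD14B, SNORD2, SNORD10, SNORD4A, SNORD12, SNORD15A and SNORD6. In the files these carry the prefix hsa_ (hsa_SNORD3@, hsa_SNORD2, hsa_SNORD13 and so on), which is left out from here on. They were taken by name alone, as all probes whose name begins with hsa_SNORD, and made up 10 of the 1488 distinct probes on the array.

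Total RNA was extracted with TRIzol at 5 stages. Proliferating cells were harvested at 70 to 80% confluence and confluent cells at 100%, and the differentiating cells were put in 2% horse serum at confluence and taken 1, 2 or 4 days later. The labels count 4 biological replicates for each stage, with 2 labelled in each dye, and each replicate shared an array with a reference pooled from 4 proliferating replicates. The values are therefore ratios to a proliferating pool, from cells of a single line with no other treatment named, on 20 arrays in all.

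The snoRNAs probed here are box C/D snoRNAs, named for short conserved sequence boxes that bind a common set of proteins, among them the methyltransferase fibrillarin. Most of them pair with ribosomal or spliceosomal RNA and direct 2′-O-methylation at the paired site, while a few are needed for the cutting of the ribosomal RNA precursor. In mammals many lie in introns of genes for ribosomal proteins and translation factors and are released when the host transcript is spliced. Because they are abundant and short, they are often used as loading controls in small-RNA assays.

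Of the 10 human symbols, 6 matched a mouse gene in the RefSeq table for GRCm38.p6. Mouse Snord2 lies in Eif4a2, which encodes a translation initiation factor. Snord4a lies in Rpl23a and Snord15a in Rps3, both ribosomal protein genes, and Snord12 lies in Zfas1, a non-coding host gene. Snord13 and Snord118 lie in no other gene of that table. U3, the RNA for which SNORD3@ is named, is encoded in the mouse by 5 Rnu3 genes in the table. Whether this probe separates them was not checked. Snord14b, Snord10 and Snord6 were not matched. The genes of the 6 matched snoRNAs were between 66 and 148 bases long. The sequences of the probes and of the snoRNAs were not used here.

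The sequences shown are those of miRNAs with which the snoRNA results are set side by side. The first pair belongs to the mouse probes whose array-by-array ratio was most like that of SNORD2, and the last is the miRNA that rose most in these cells. They are mature sequences from RefSeq on GRCm38.p6, 5′ to 3′, with the seed (bases 2 to 8) in capitals.
mmu-miR-17-5p: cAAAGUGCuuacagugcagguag
mmu-miR-20a-5p: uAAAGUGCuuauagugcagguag
mmu-miR-206-3p: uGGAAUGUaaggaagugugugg
miR-17-5p lies at chr14:115043684-115043706 and miR-20a-5p at chr14:115044183-115044205, both on the plus strand and in the same miRNA cluster, and they share the seed AAAGUGC. miR-206-3p, a muscle miRNA, lies at chr1:20679055-20679076 on the plus strand and has the seed GGAAUGU.

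The arrays behind these values differed in the signal of their blank spots. A probe counted as detected in a channel when the background-subtracted median of at least 1 of its spots passed the percentile 95 of 114 Empty and negative-control spots on the same array. That threshold ran from 145 to 424 intensity units in red and from 71.4 to 414 in green, and 200 of the 1448 probes for an RNA, 13.8%, passed it in both channels of all 20 arrays. The log2 ratio of the muscle miRNA miR-206 to the pool was 3.14 at day 1, 3.75 at day 2 and 4.13 at day 4. Its probe was among the mouse miRNA probes used to read which channel held the sample, so this is not an independent check. Of the 12 markers of liver, neurons, blood, endothelium and epithelium that were looked up, 2 were bright enough to be tested (miR-124a and miR-200b), and their log2 ratios lay between -0.28 and -0.02. The 10 spike-control probes were detected in 0 to 7 of 40 array channels, so they gave no check of the scaling.

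The snoRNA probes fell into those that were detected in every array channel and those that were near or under the blank spots. SNORD3@, SNORD2 and SNORD13 were detected in both channels of all 20 arrays, that is, in 40 of 40 array channels and at every stage. SNORD3@ is the probe for U3, which acts in the early cleavages of the ribosomal RNA precursor that lead to 18S RNA. Its signal was 6.18 to 211 times the blank-spot threshold, with a median of 31.2. SNORD2 is an intron-encoded RNA of the methylation-guide family, and its signal was 5.97 to 42.5 times the threshold, with a median of 21.4. SNORD13, known in human cells as U13, guides the acetylation of a base in 18S RNA and came closer to the blank spots, at 1.06 to 18.5 times the threshold with a median of 2.92. SNORD13 was not detected throughout under stricter or other settings: at day 1 it passed in 5 of 8 array channels at the percentile 99 of the blank spots, and in 7 of 8 when both spots had to pass or when foreground means were used. SNORD3@ and SNORD2 passed in all channels under these settings too.

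The other 7 probes gave little signal above the blanks. SNORD12 passed in 18 of 40 array channels, SNORD6 in 13 and SNORD14B, the probe for U14, which takes part in 18S processing, in 10. SNORD15A passed in both channels of proliferating array 2, at 821 units in red and 1016.5 in green, and in none of the other 38 channels. SNORD4A passed in 1 channel. SNORD118 (U8, needed for the maturation of the RNAs of the large ribosomal subunit) and SNORD10 passed in 0 of 40, with signals at most 0.841 and 0.917 times the threshold. Signals at the level of blank spots do not show that an RNA is missing from the cells, since the probes carry human names and their match to the mouse RNA was not tested.

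**Figure D1:**
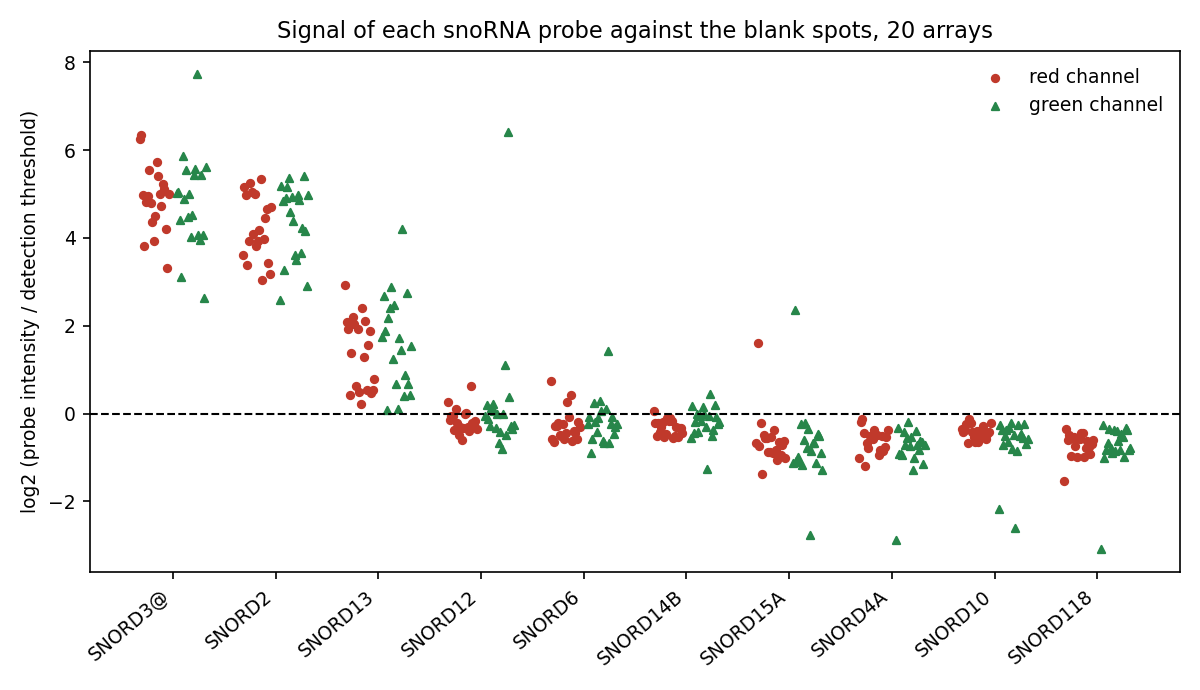
The log2 signal of each snoRNA probe over the blank-spot threshold of the same array and channel is plotted for 20 arrays, with circles for red and triangles for green, and the dashed line at 0 marks the threshold. SNORD3@, SNORD2 and SNORD13 lie above the line in all 40 array channels, while the medians of the other 7 probes lie below it.

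Whether these probes kept the same ratio to the pool as the cells differentiated was asked at days 1, 2 and 4. The channel that held the sample is not given for single arrays, and it was read from the opposed miRNA ratios of the arrays within each stage (134 mouse miRNA probes), which put the sample in red on 6 arrays and in green on 6. The value table deposited with the series gave the same turn on 12 of 12 of these arrays. The directions given are therefore likely rather than stated, and all signs would flip together if every array were turned the other way. A probe was tested when the channel of the sample passed the blank threshold on 3 or more of a stage's 4 arrays (either channel, for proliferating or confluent cells). Of all probes 576 were tested, and among them were 5 of the 10 snoRNA probes: SNORD2, SNORD3@, SNORD13, SNORD12 and SNORD6. The fits of the 3 days share the reference pool and the 4 proliferating arrays, so they are not independent of each other.

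SNORD2 was lower than the pool at days 2 and 4 with the arrays scaled over the miRNA probes, and higher with the arrays centred on U6 RNA. At day 4 its log2 ratios on the 4 arrays were -0.75, -0.98, -0.32 and -0.85. All 4 lay below 0, and array 3 lay nearest to it. Their mean was -0.72 ± 0.29 (SD, n = 4), a fold of 0.605, with SE 0.14, a 95% interval from -1.01 to -0.44 and an adjusted p of 7.33e-04 in limma. The raw signals go the same way: the sample channel read 6137 units beside 9715.25 in the pool channel on array 1, and 3027.5 beside 5502.5 on array 2. With the sample in green, the sample channel read 2270.25 beside 2595.25 on array 3 and 5232.5 beside 6779.5 on array 4. With no normalization, however, the day 4 value was -0.52 and did not pass the threshold (limma adjusted p = 0.0569). The direction turned to 0.48 when each array was centred on the 2 probes for U6, the spliceosomal small nuclear RNA, because those probes were lower still.

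At day 2 SNORD2 read -0.74, -0.24, -0.70 and -0.18 on the 4 arrays, all below 0. Their mean was -0.46 ± 0.29 (SD, n = 4), with an adjusted p of 0.0404 in limma, and centring on U6 turned it to 0.64. That call was lost without day 2 array 1 (adjusted p = 0.271) or array 3 (0.237), and also without day 4 array 1 (0.0529) or array 4 (0.0503), which changes only the error. Other normalizations lost it too, among them median centring (limma adjusted p = 0.126) and print-tip loess (0.118). At day 1 the arrays read 0.11, -0.52, -0.36 and -0.33, so that 1 of 4 lay above 0. The day 1 mean was -0.27 ± 0.27 (SD, n = 4), which did not pass the threshold (adjusted p = 0.238).

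The values of SNORD2 were further below 0 at each later day, but the days did not separate from each other. Day 4 minus day 1 was -0.45 with SE 0.19 and an adjusted p of 0.242 in limma. In that contrast 0 of the 5 tested snoRNA probes were called, where 4.17% of all tested probes were, 2.6% lower and 1.56% higher. An unadjusted p under 0.05 in limma was reached there by 1 of the 5, beside 89 of all 576 tested probes. For SNORD2 day 4 minus day 2 was -0.26 with an adjusted p of 0.995. The arrays of neighbouring days also overlapped. At day 4 the call of SNORD2 held when any 1 of the 16 arrays was left out, with values from -0.87 to -0.63 and adjusted p up to 0.013.

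SNORD3@, the U3 probe, had ratios of similar size on average but a wider spread. At day 2 its arrays read -0.04, -1.35, -0.58 and -1.07, with a mean of -0.76 ± 0.58 (SD, n = 4), SE 0.25 and an adjusted p of 0.0715. At day 1 they read -0.74, -0.83, 0.14 and -0.997, with a mean of -0.61 and an adjusted p of 0.143. At day 4 they read -0.51, -0.30, -0.58 and -0.38, with a mean of -0.44, a 95% interval from -0.96 to 0.08 and an adjusted p of 0.340. None of the 3 days passed the threshold, although 11 of the 12 arrays lay below 0. The interval at day 4 holds values as low as those of SNORD2, and so does not show that U3 kept its level.

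The spread of SNORD3@ was already present between proliferating cells and the proliferating pool. There the log2 ratio of red over green was -0.33, 1.48, 0.58 and 0.42 on the 4 arrays, an SD of 0.74 against a median of 0.23 over all tested probes and at the percentile 99.5 of them. Array 2, at 1.48, was far above the others. Without it the day 2 value of SNORD3@ stayed at -0.76, since these arrays enter only the dye term and the error, and its adjusted p became 0.0177. The call at day 2 was also reached with the 12 arrays of days 1, 2 and 4 alone (adjusted p = 0.0181), without day 2 array 1 (-1.02, adjusted p = 0.0321) and with the 20 arrays under the table's turn of the confluent ones (adjusted p = 0.0412). It was reached as well when only mouse miRNA and snoRNA probes were tested (adjusted p = 0.0439), and under 1 of the ways of using the proliferating arrays as a turned control (-1.25, adjusted p = 0.0248). These were the only passes, 6 of 39 alternatives, with limma adjusted p up to 0.754 in the others. Of the 16 fits that left out 1 array, 2 passed. Centring on U6 turned the day 2 value of SNORD3@ to 0.34, which did not pass (limma adjusted p = 0.220). In the same proliferating arrays the SD was 0.29 for SNORD2 and 0.26 for SNORD13.

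SNORD13 was lower than the pool at day 2 with the arrays scaled over the miRNA probes, and did not pass at the other days. At day 2 the arrays read -0.28, -0.56, -0.29 and -0.70, all below 0. Their mean was -0.46 ± 0.21 (SD, n = 4), with SE 0.13 and an adjusted p of 0.0330, and it turned to 0.64 when the arrays were centred on U6. The call was lost when any 1 of the 4 day 2 arrays was left out, with adjusted p of 0.0545, 0.118, 0.0506 and 0.206 for arrays 1 to 4. Median centring (limma adjusted p = 0.0876) and print-tip loess (0.216) lost it too. At day 1 the arrays read -0.19, -0.74, -0.23 and -0.27, with a mean of -0.36 and an adjusted p of 0.100. At day 4 they read -0.63, 0.00, -0.19 and 0.09, with a mean of -0.18, a 95% interval from -0.45 to 0.09 and an adjusted p of 0.483.

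**Figure D2:**
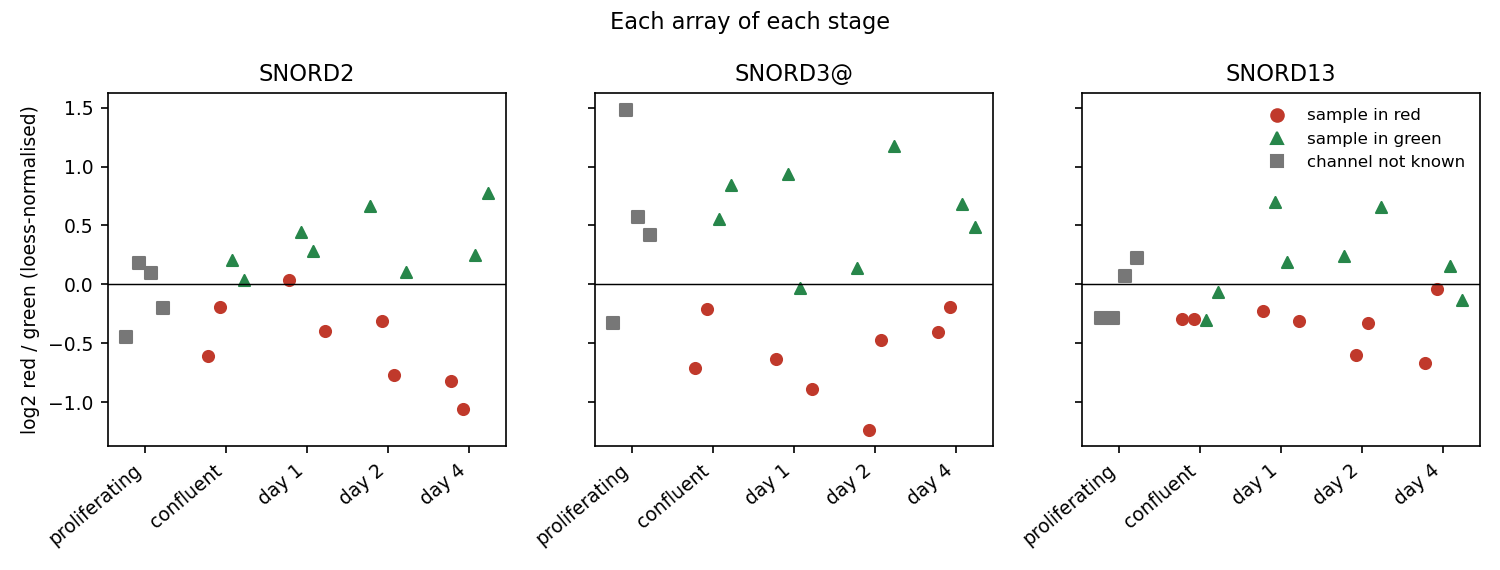
The loess-normalised log2 ratio of red over green is plotted for each array of each stage for SNORD2, SNORD3@ and SNORD13, with red circles where the sample is read as being in red, green triangles where it is in green, and grey squares for the proliferating arrays, whose channel is not known. For SNORD2 at days 2 and 4 the triangles lie above 0 and the circles below it, and the proliferating arrays of SNORD3@ spread from -0.33 to 1.48.

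SNORD12 and SNORD6 entered the test through a few arrays and were mostly at the level of the blank spots. SNORD12 entered through proliferating and confluent cells, where either channel passed on 3 of 4 arrays; its sample channel passed on 1 of 4 arrays at day 1, 2 of 4 at day 2 and 0 of 4 at day 4. SNORD6 entered through day 1, where its sample channel passed on 3 of 4 arrays, against 2 of 4 at day 2 and 0 of 4 at day 4. No ratio at day 4 is taken as a change for either probe, since the sample channel was at blank level there. A p that missed the threshold says little at signals this low. SNORD12 stood at -0.01 at day 1 and 0.72 at day 2, with an SE of 0.36 and adjusted p of 0.988 and 0.303. The day 2 value came from 1 array. Its arrays read -0.39, -0.14, 0.26 and 3.14, and on array 4 the 2 spots of the probe differed by 6.36 on the log2 scale, with a mean of 23178 units in green against a threshold of 270. Without that array the value was -0.16 (adjusted p = 0.687), so the day 2 value rests on a single spot. SNORD6 stood at 0.12 at day 1 and 0.23 at day 2, with adjusted p of 0.628 and 0.382.

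The 5 probes that were not tested were SNORD118, SNORD14B, SNORD10, SNORD4A and SNORD15A. SNORD118 and SNORD10 passed the blank threshold on 0 of 20 arrays, SNORD4A and SNORD15A on 1 each, and SNORD14B in at least 1 channel on 8, with a signal at most 1.37 times the threshold. No stage effect is reported for them, and a change in these RNAs was not detectable at these signals.

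Counted over the 5 tested snoRNA probes, 0 were called at day 1, where 9.38% of all 576 tested probes were called, and 2 had an unadjusted p under 0.05 in limma. Of all tested probes 2.78% were called lower at day 1. At day 2 the number called was 2 (SNORD2 and SNORD13), both lower, where 7.81% of all tested probes were called and 3.12% were called lower. At day 4 it was 1 (SNORD2), where 16.1% of all tested probes were called and 7.29% were called lower. No tested snoRNA probe was called higher at any of these days, where 6.6%, 4.69% and 8.85% of all tested probes were. The median log2 ratio of the 5 was -0.27 at day 1, -0.46 at day 2 and -0.18 at day 4, beside 0.00, 0.00 and -0.01 over all tested probes. These counts and medians take in SNORD12 and SNORD6, whose sample channel passed on no array at day 4. A share of so few probes, chosen by name and not at random, is a description only.

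**Figure D3:**
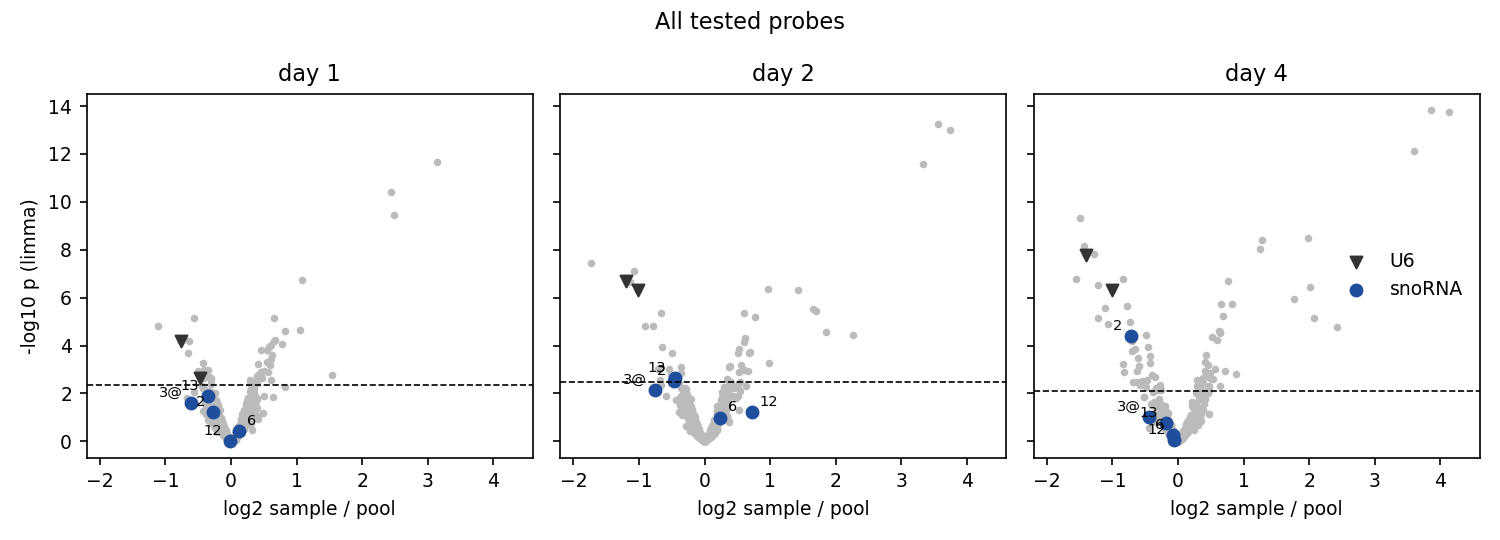
Each point is a tested probe at day 1, 2 or 4, with the log2 ratio of sample to pool on the horizontal axis and the negative log10 of the limma p on the vertical axis; large circles are the 5 tested snoRNA probes, triangles are the U6 probes, and the dashed line is the p at which the adjusted value reaches 0.05. SNORD2 crosses the line at days 2 and 4 and SNORD13 at day 2 under scaling over the miRNA probes, and both U6 probes lie further to the left.

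The other non-miRNA control RNA on the array was U6, with 2 probes. Both were lower than the pool at all 3 days under scaling over the miRNA probes. The first read -0.47 at day 1, -1.01 at day 2 and -1.01 at day 4 (adjusted p from 1.66e-05 to 0.0311), and the second -0.76, -1.19 and -1.40 (adjusted p from 9.70e-07 to 0.00297). In confluent cells they stood at -0.18 and -0.20 and did not pass (adjusted p of 0.760 and 0.779). At day 4 SNORD2, SNORD3@ and SNORD13 thus lay nearer to 0 than U6, and each had a value above 0 relative to it, with 0.48 for SNORD2, 0.77 for SNORD3@ and 1.02 for SNORD13, as nearly all probes did: 565 of the 576 tested probes were called higher relative to U6 at day 4. Centring on U6 moved the median of all tested probes to 0.61, 1.10 and 1.20 at the 3 days. Centring on the 3 snoRNA probes moved it to 0.41, 0.55 and 0.44, and then 99.5%, 98.9% and 96.6% of the called probes were higher, beside 70.4%, 60% and 54.8% with loess over the miRNA probes. The muscle miRNA miR-206 stayed far above the pool under each of these, at 4.58 at day 4 relative to the snoRNA probes and 5.34 relative to U6.

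**Figure D4:**
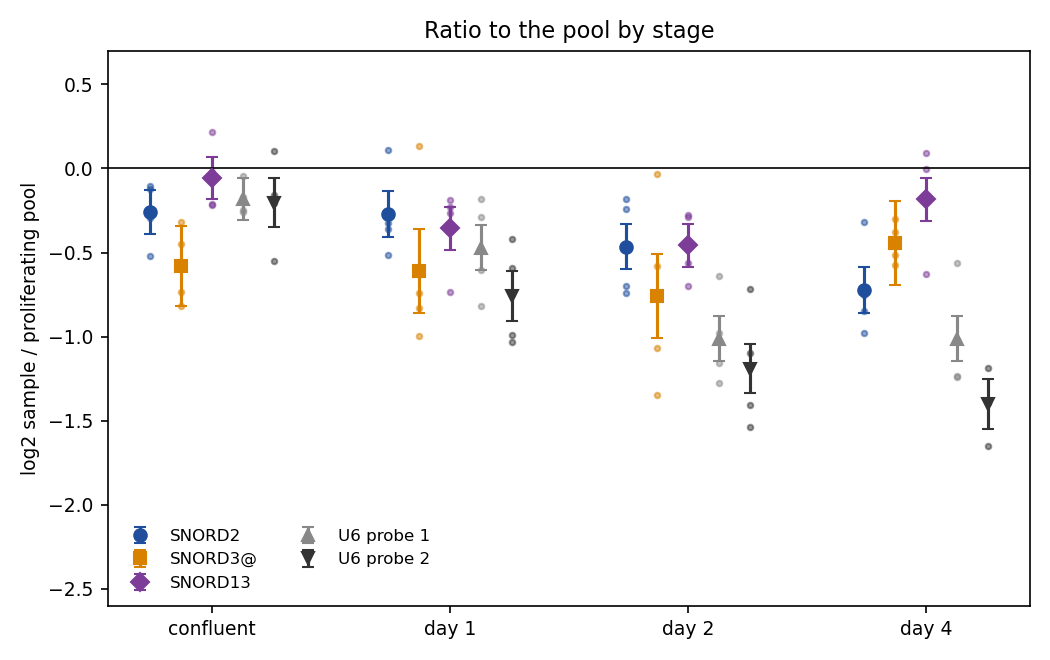
Mean log2 ratios of sample to pool with their standard errors (large symbols and bars) and the 4 arrays (small points) are shown by stage for SNORD2, SNORD3@, SNORD13 and the 2 U6 probes, under scaling over the miRNA probes. SNORD2 goes from -0.26 in confluent cells to -0.72 at day 4, U6 goes to -1.01 and -1.40, and centring on U6 turns the snoRNA values at day 4 to above 0.

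Confluent cells were compared with the same pool to see what reaching confluence alone goes with. The 4 confluent arrays could be turned only with the deposited value table, and this fit of 20 arrays was added after the data were seen. SNORD3@ read -0.82, -0.32, -0.45 and -0.73 on the 4 arrays, all below 0. Its mean of -0.58 ± 0.23 (SD, n = 4) was the lowest of the 576 tested probes, but it did not pass the threshold (SE 0.24, adjusted p = 0.457). SNORD2 read -0.52, -0.10, -0.30 and -0.12, with a mean of -0.26 and an adjusted p of 0.582. SNORD13 stood at -0.06 with an adjusted p of 0.992. SNORD12 stood at 0.16 and SNORD6 at 0.23, with adjusted p of 0.991 and 0.635, and their sample channels passed the blank threshold on 2 and 1 of the 4 arrays. None of the 5 tested snoRNA probes was called, where 0.347% of all tested probes were. An unadjusted p under 0.05 in limma was reached by 1 of the 5, beside 50 of all 576. Under the other pairings of the confluent arrays the size for SNORD3@ was 0.20 and 0.05, so it rests on the turn taken from the table.

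The authors also deposited a value for each probe and stage. These values come from the same arrays, so they are not an independent comparison at any stage. That table was also used to turn the confluent arrays. In the authors' deposited table SNORD2 stood at -0.28 in confluent cells, -0.39 at day 1, -0.58 at day 2 and -0.79 at day 4. In the authors' deposited table SNORD3@ stood at -0.24, -0.35, -0.43 and -0.12, and SNORD13 at 0.12, -0.10, -0.24 and 0.05, at the same stages. For SNORD13 the sign in the authors' deposited table was thus opposite to that of the fit in confluent cells (0.12 against -0.06) and at day 4 (0.05 against -0.18). In the authors' deposited table SNORD12 at day 2 stood at 1.26. The day 2 value of the fit rested on 1 spot, and whether the deposited value does so was not tested. How that table was scaled is not given in the sources used here.

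Among SNORD3@, SNORD2 and SNORD13, the red over green ratios went together only in part across the 20 arrays. Pearson's r was 0.62 for SNORD3@ with SNORD13, 0.58 for SNORD3@ with SNORD2 and 0.52 for SNORD13 with SNORD2. These arrays share a reference and a dye layout, so the correlations are a description with no test. Those of SNORD2 were closer to some miRNA probes than to the other snoRNAs. Of all tested probes, the most like SNORD2 were a probe for miR-18b that carries no mouse name (r = 0.942), the miR-17-5p probe (0.934) and the miR-20a probe (0.929). These miRNAs belong to related clusters, and miR-17-5p and miR-20a share the seed shown above.

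All 3 of those miRNA probes were lower than the pool at day 4 under scaling over the miRNA probes, and by more than SNORD2 in value. The miR-17-5p probe stood at -0.65, -1.08 and -1.49 at days 1, 2 and 4 (limma adjusted p from 6.86e-08 to 0.00297). The miR-20a probe stood at -0.66, -1.14 and -1.43, and the miR-18b probe at -0.38, -0.68 and -1.22. The closest probes to SNORD3@ reached lower correlations, with 0.78 for a probe named miR-Plus, 0.72 for sbi-miR-164c and 0.71 for miR-320. None of these 3 passed the test at days 1, 2 or 4. For SNORD13 they were let-7b (0.76), cel-miR-264 (0.75) and miR-494 (0.75), of which miR-494 passed at day 1 with -0.41 and at day 4 with -0.33.

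**Figure D5:**
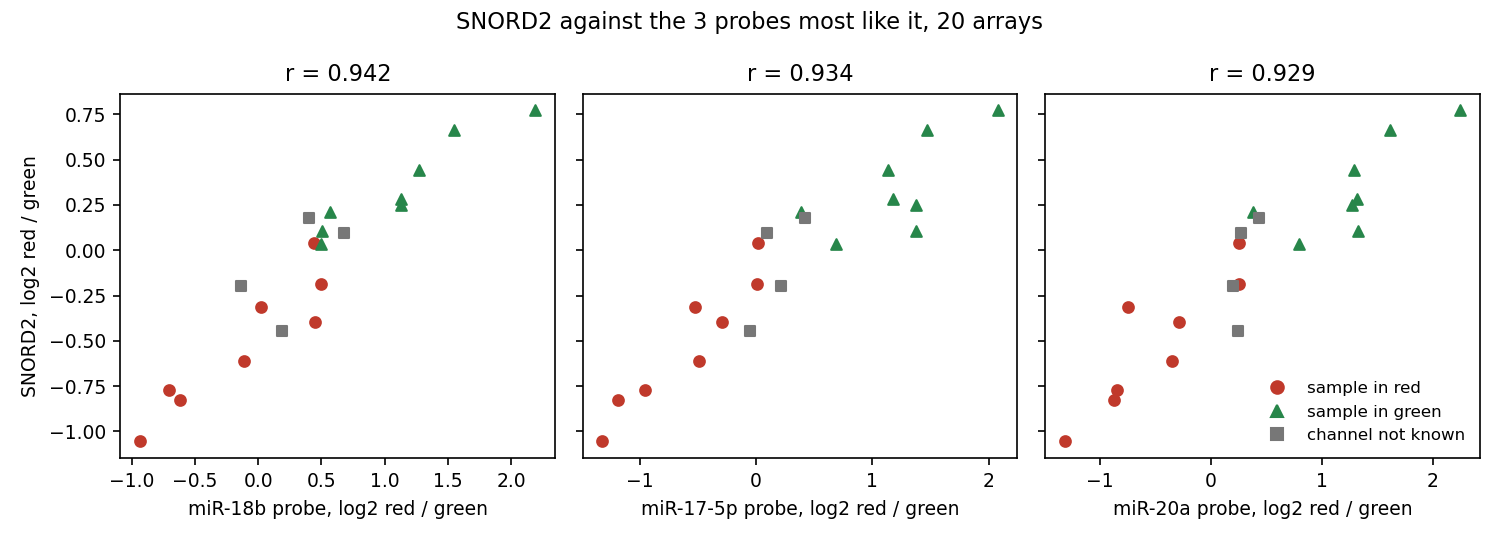
The log2 ratio of red over green of SNORD2 is plotted against that of the 3 tested probes most like it over 20 arrays, with symbols for the channel of the sample. Pearson's r is 0.942 for miR-18b, 0.934 for miR-17-5p and 0.929 for miR-20a, and the arrays with the sample in red lie mostly at lower left and those with it in green at upper right.

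Of 5 miRNAs looked up by name because they are known to lie in snoRNA genes, only miR-664 had a probe on the array. The other miRNA probes were not screened against snoRNA genes. The mouse gene Mir664 lies in Rab3gap2 and overlaps Snora36b, an H/ACA snoRNA gene, a family that guides the change of uridine to pseudouridine. Its probe carries a rat name, rno-miR-664, and was detected in 40 of 40 array channels. The log2 ratio stood at 0.03 in confluent cells and at 0.10, -0.09 and 0.00 at days 1, 2 and 4.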

How the data were processed

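The deposited files held, per spot and channel, red and green foreground and background intensities, not normalised per the file headers and the values. The log2 ratio that the authors deposited per spot was the plain ratio of red to green medians after subtraction of the background, to within 5e-10. A deposited value table held 1 log2 value per probe and stage; its scaling is not given in the sources used here. With limma 3.58.1 in R 4.3.3, the medians were background-corrected (normexp, offset 50), normalised within each array (global loess, with weight 0 for control and snoRNA spots), and repeat spots averaged. The day fit held 16 arrays (proliferating coded 0, a dye term, 12 residual degrees of freedom) and the confluent fit 20. P-values were two-sided and adjusted by Benjamini-Hochberg over 576 tested probes, with a threshold of 0.05. Intensities give no read depth: the number of arrays and the signal over blank spots limit the precision. All 10 snoRNA probes were named, beside U6, a miRNA whose gene overlaps a snoRNA gene, and the 3 probes most like each member. Members, marker lists and rules were chosen with earlier results of these data known. In simulated arrays the fit was checked for recovery of known shifts. Other backgrounds, normalizations, scalings, filters, spots and arrays were tried.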

Additional observations from a re-analysis of the deposited data

Results flagged for a closer look

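Among the 50 groups of 4 arrays examined (each snoRNA probe at each stage), 2 had a single array far from the other 3, and chance flags about 1 in 20 groups. SNORD13 read -0.74 on day 1 array 2, where the next array read -0.27 and the far end was -0.19. Both channels were detected there, at 595 units in red and 316.5 in green. SNORD14B read 0.54 on day 1 array 4, where the others lay between -0.49 and -0.36. Neither channel was detected on that array, so the value compares signals at the level of blank spots.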

How the results depend on the processing

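No paired analysis was possible because the labels give the replicates no numbers. At day 4 SNORD2 passed in 36 of 39 alternatives, 1 of them with the sign turned. At day 2 SNORD2 passed in 22 of 39 and SNORD13 in 24 of 39, each with the sign turned in 1 of them. SNORD3@, which did not pass at day 2 in the fit reported above, passed there in 6 of 39. The day 4 count of snoRNA calls was 1 and fell to 0 with no normalization and under ways 2 and 3 of using the proliferating arrays as a turned control (SNORD2 at -0.52, -0.64 and -0.49, with 53, 38 and 54 of all 576 tested probes called). Centring on U6 made it 5, all higher, with SNORD2 at 0.48, SNORD3@ at 0.77, SNORD13 at 1.02, SNORD12 at 1.14 and SNORD6 at 1.13 (the last pair at blank level in the sample channel), where 98.3% of all tested probes were called. The day 2 count of 2 became 4 with U6 centring (SNORD2 and SNORD13 at 0.64 each), where 98.6% of all tested probes were called. It became 3 with the 20 arrays under the table's turn (61 of all 576 called), with mouse miRNA and snoRNA probes only (35 of 192), and without proliferating array 2. It became 1 (SNORD13) with normexp offset 0 (49 of all 576 called), with the second spot alone and under way 6 (24 of 576). With the 12 arrays of days 1, 2 and 4 (42 of 576) it was also 1, but the probe called was SNORD3@. There SNORD2 (limma adjusted p = 0.0557) and SNORD13 (0.0509) were lost. Under way 4 it stayed at 2, with SNORD3@ in place of SNORD13 (limma adjusted p = 0.216), where 7.64% of all tested probes were called. The day 2 count became 0 with median centring (33 of all 576 called), print-tip loess (48), no normalization (26), and no filter on dim probes (34 of 1448). It was also 0 with the first spot alone and under ways 1, 2, 3 and 5 (18, 20, 37 and 20 of 576 for these ways). The day 1 count of 0 became 1 with U6 centring, where 88.9% of all tested probes were called, and under way 4, where 9.9% were. Leaving out 1 array gave a count of 0 throughout at day 1, of 0 to 3 at day 2 and of 1 throughout at day 4. The counts over all tested probes were then 17 to 55, 33 to 50 and 48 to 94 at these days. Without day 2 array 3 the day 2 count of snoRNA calls was 0, and without day 2 array 1, 2 or 4 or day 4 array 1 or 4 it was 1. Without day 2 array 1 the probe called was SNORD3@. Beyond the construction of each alternative, the cause was not tested. At confluence the count of snoRNA calls was 0 in all 35 alternatives run, where at most 3 of all tested probes were called. The 3 snoRNA probes detected in both channels of all 4 arrays of a stage became 2 when SNORD13 fell out: at day 1 under each of the 3 detection alternatives (percentile 99, both spots, foreground means), at day 4 under percentile 99 and in proliferating cells when both spots were needed.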

Other observations

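The 4 proliferating arrays set proliferating cells against their own pool, and their turn is not known, so their values are given as red over green. SNORD2 read -0.45, 0.18, 0.10 and -0.20 and SNORD13 read -0.28, -0.29, 0.07 and 0.23, and both groups held values on each side of 0. SNORD12 read -0.34, -0.01, 0.07 and 0.12, and SNORD6 read 0.13, -0.49, -0.35 and -0.06.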
